A study of Homo sapiens with 8 samples.

Results

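Cytosolic chaperones and the heat shock response were described through 36 genes in HEK293T cells with and without overexpression of KCNQ3. The genes were taken by name from a list of heat shock factors, chaperones and cochaperones, with the pseudogene SUGT1P1 kept beside its parent SUGT1. They are 36 of the 34290 genes with a count. The name "cytosolic" does not hold for HSPA9, HSPD1 and HSPE1, which encode mitochondrial chaperones, nor for HSPA13, whose product is microsomal.

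HEK293T derives from human embryonic kidney and expresses the large T antigen of SV40, and every library came from this line under standard culture conditions. The overexpression group (4 libraries) received, with the reagent FuGene HD, a plasmid that encodes tagged human KCNQ3, a subunit of neuronal M-type potassium channels, and RNA was taken 48 hours later. The control group (4 libraries) is described as normal HEK293T cells with the control genotype, but the transfection text stands with all 8 samples, so the sources used here do not give whether the controls were exposed to reagent or to an empty plasmid. The sources used here do not give how many cells took up the plasmid, no heat treatment is named for either group, and in bulk RNA a change in fewer cells and a smaller change in all cells cannot be told apart.

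Chaperones of the HSP70 family bind exposed hydrophobic stretches of unfolded proteins in a cycle driven by ATP. J-domain proteins deliver clients and start ATP hydrolysis, exchange factors release ADP, and HSP90 with its cochaperones takes on clients such as kinases and steroid receptors for their last folding steps. When unfolded proteins accumulate, HSF1 is freed from chaperones, forms trimers, binds heat shock elements in promoters and raises transcription of HSPA1A, HSPA1B, DNAJB1, HSPH1 and related genes. The large T antigen itself has a J domain that recruits HSPA8, a property shared by both groups.

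Of the 36 genes, all of which passed the filter on low counts, 1 rose with KCNQ3 overexpression and 0 fell in the quasi-likelihood test of edgeR (Benjamini-Hochberg adjustment over 19280 genes, threshold 0.05). Over all genes, 0.301% passed. The gene that rose was SUGT1P1, which had 0 counts in every control and so passed the filter only through the overexpression libraries. DESeq2, run as an alternative, called AHSA1 higher and DNAJB2 lower. It gave no adjusted p to SUGT1P1 or CRYAB, so it could call neither. It called 2.29% of all genes higher and 3.11% lower, of the 13654 to which it gave an adjusted p. Unadjusted p-values under 0.05 were found for 2 chaperone genes higher (SUGT1P1 and AHSA1) and 4 lower (DNAJB2, CRYAB, HSPA13 and DNAJB4), against 9.92% of all genes higher and 9.46% lower, so neither share was far from the background. The groups did not overlap for SUGT1P1, which was higher, and for DNAJB2, which was lower, while 5.84% of all genes were separated upward and 5.77% downward. The median log2 fold change of the 36 genes was 0.035, with 24 values above 0 and 12 below. Over all genes tested the median was 0.009 and 52.6% of values were above 0. The chart of fitted changes shows how narrow most of these differences were.

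**Figure D1:**
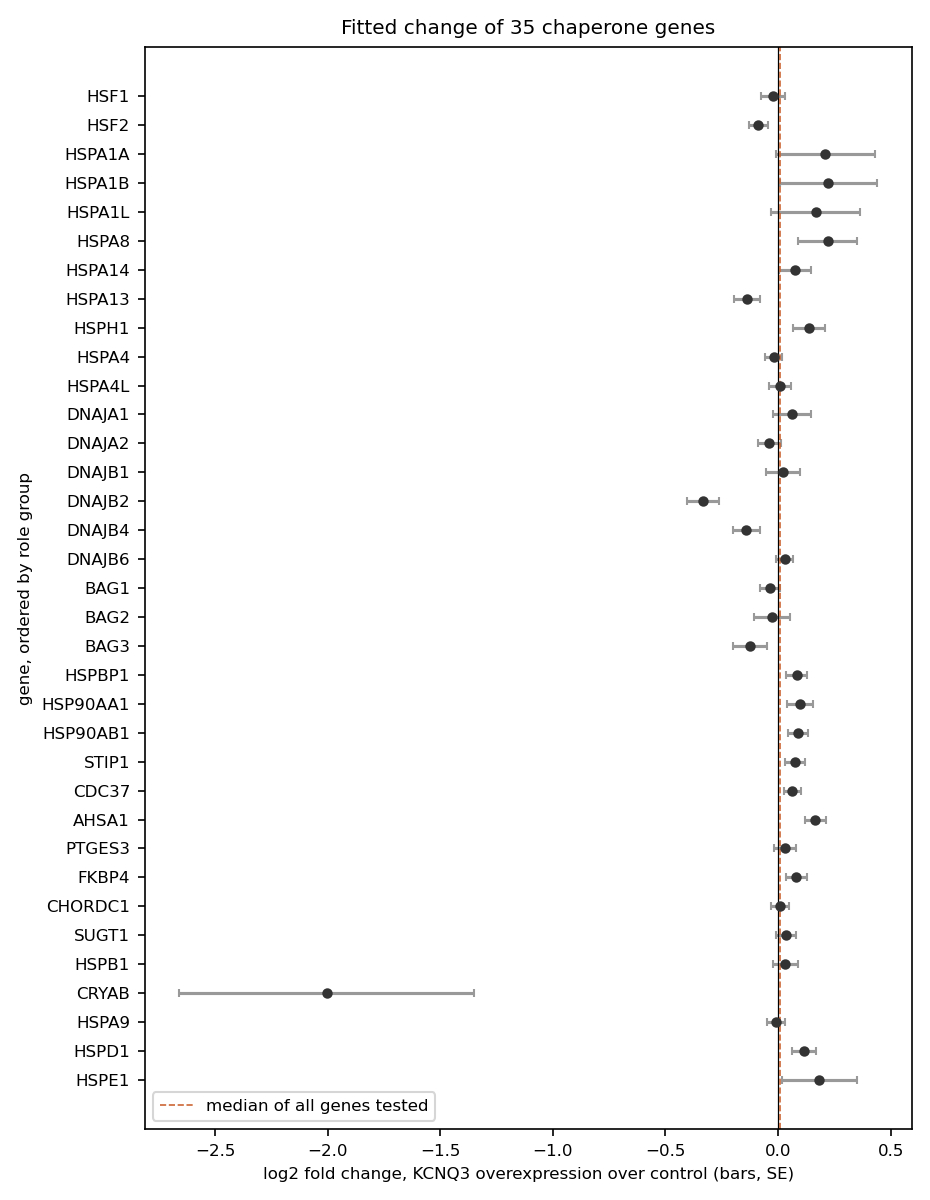
Fitted log2 fold change (KCNQ3 overexpression over control, x axis) of 35 chaperone genes (y axis, ordered by role), with bars for 1 standard error and a dashed line at the median of all genes tested. All genes but CRYAB lie between -0.33 and 0.22, and CRYAB stands at -2.00 with a wide bar; SUGT1P1 had 0 counts in every control and is not drawn.

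The libraries held 24020097 to 30734915 estimated counts, of which the 36 genes took 0.775% to 0.893%. KCNQ3 itself had at most 5 counts in a control library and 15283 to 19709 with overexpression, which matches the labels. The share of mitochondrially encoded genes was 3.94% to 5.53% in the control group and 4.77% to 5.77% with KCNQ3. All 9 HEK293T markers searched for were detected. Of 7 fibroblast markers COL1A2, DCN and POSTN had no counts, and of 6 blood markers PTPRC, CD3E and HBB had none. Levels below are in CPM, which scales each library to 1000000 counts after TMM correction, and are listed for replicates 1 to 4.

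Neither heat shock factor passed the test. HSF1, the main activator of the response, stood at 87.1, 77.2, 79.7 and 77.1 CPM in controls and at 84.2, 80.3, 79.1 and 72.7 CPM with KCNQ3. The groups overlapped, and the highest library was a control. The log2 fold change of HSF1 was -0.02 (SE 0.06, edgeR adjusted p = 0.87), with a 95% interval of -0.15 to 0.10. Its RNA level does not report its activity, which is set after translation. HSF2, a second factor active in development and in proteasome stress, stood at 67.0, 66.2, 68.7 and 69.1 CPM in controls and 67.7, 64.3, 62.4 and 60.7 CPM with KCNQ3. The 3 lowest values of HSF2 belonged to overexpression replicates 2, 3 and 4, but replicate 1 lay among the controls (log2 fold change -0.09, SE 0.04, 95% interval -0.18 to 0.01, edgeR adjusted p = 0.29).

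The stress-inducible HSP70 genes lie together on chromosome 6 and are standard targets of HSF1. Their promoters are shown beside those of HSPA8 and DNAJB1 because they carry the element through which HSF1 acts. A paired heat shock element was searched for as GAANNTTC or TTCNNGAA, each of which reads the same on both strands and may overlap the other, within 250 bases before to 50 after the RefSeq start (GRCh38.p14). The stretches below, from RefSeq, are cut so as to end before the start of the most abundant GENCODE transcript (for HSPA8, to 30 bases around its nearest pair of elements), run 5′ to 3′ on the gene's strand and have the elements in capitals. They cover chr6:31815293-31815463 (plus strand), chr6:31827488-31827734 (plus strand), chr11:123062170-123062199 (minus strand) and chr19:14518421-14518647 (minus strand).
HSPA1A: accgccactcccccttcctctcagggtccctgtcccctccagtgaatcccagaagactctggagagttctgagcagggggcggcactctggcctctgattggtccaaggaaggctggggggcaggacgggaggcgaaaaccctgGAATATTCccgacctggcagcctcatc
HSPA1B: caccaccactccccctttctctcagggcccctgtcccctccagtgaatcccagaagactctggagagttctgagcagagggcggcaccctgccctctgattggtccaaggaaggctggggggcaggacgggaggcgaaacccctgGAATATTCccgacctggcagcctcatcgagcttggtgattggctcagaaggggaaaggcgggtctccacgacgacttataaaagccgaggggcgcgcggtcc
HSPA8: cgggccccTTCTGGAAGGTTCtaagatagg
DNAJB1: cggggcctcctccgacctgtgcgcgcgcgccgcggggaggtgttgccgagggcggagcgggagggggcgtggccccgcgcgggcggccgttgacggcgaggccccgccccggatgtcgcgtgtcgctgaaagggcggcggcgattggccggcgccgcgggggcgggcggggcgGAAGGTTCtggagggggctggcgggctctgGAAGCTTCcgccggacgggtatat

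A promoter entry was matched for 31 of the 36 genes (not HSF1, HSPA14, CRYAB, FKBP4 and SUGT1P1), and where a gene had several, the one nearest to the start of its most abundant transcript was used. That RefSeq start lay 804 bases from the transcript's GENCODE start for HSPA8, 461 for HSPH1, 385 for HSPE1 and 315 for CHORDC1, further than the 300 bases searched, so the windows of these 4 genes need not be the promoter of that transcript. The paired element occurred in 16 of 31, or 51.6%, against 13.5% of the 35116 promoters in the table. CHORDC1 had 6 such pairs, HSPA8 4, and DNAJA1 and HSPD1 3 each. Among the genes with none in their windows were HSPH1, HSP90AA1, BAG3 and HSPE1, so heat-inducible genes were on both sides. A run of 3 alternating units occurred in 5 of the 31 promoters (CHORDC1, DNAJA1, DNAJB6, HSPA8 and HSPD1), or 16.1%, against 0.49% of all. The 35116 promoters were not reduced to a single entry per gene, as the 45 entries of the chaperone genes were. The shares are therefore not taken over like sets. The match is a description of these letters in these windows and not of binding.

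HSPA1A (chromosome 6, 31815464 to 31817946) and HSPA1B (chromosome 6, 31827735 to 31830255) encode the heat-inducible HSP70 and are near-identical copies. HSPA1A stood at 150, 173, 129 and 146 CPM in controls and at 119, 144, 227 and 201 CPM with KCNQ3. HSPA1B stood at 214, 247, 189 and 213 CPM in controls and at 174, 209, 323 and 301 CPM with KCNQ3. In both genes overexpression replicates 3 and 4 were above every control and overexpression replicate 1 was below every control, so the overexpression group enclosed the controls. The log2 fold change of HSPA1A was 0.21 (SE 0.22, edgeR adjusted p = 0.67) and that of HSPA1B was 0.22 (SE 0.22, edgeR adjusted p = 0.63), with a 95% interval for HSPA1B of -0.29 to 0.74. Without overexpression replicate 3 the value for HSPA1A was 0.05 and that for HSPA1B 0.08, and without overexpression replicate 1 they were 0.35 and 0.36.

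The transcripts of HSPA1A and HSPA1B share an identical run of 1715 bases, and 72.6% of the 50-base windows of HSPA1A are also in HSPA1B, so the division of reads between them was the authors' estimate. Their sum does not depend on that division. It was 364, 420, 318 and 359 CPM in controls and 293, 354, 550 and 503 CPM with KCNQ3, with the same order of libraries (log2 fold change 0.22, edgeR adjusted p = 0.65). HSPA1L, a testis-enriched HSP70 encoded next to HSPA1A on the opposite strand, was scarce at 4.51, 4.84, 3.93 and 4.97 CPM in controls and 3.45, 4.26, 6.57 and 6.22 CPM with KCNQ3. The transcript of HSPA1L shares at most 91 bases in a row with either copy, and 2.44% of its 50-base windows are also in each. Whether reads of the copies were counted for HSPA1L was not tested. The same overexpression libraries were highest and lowest for HSPA1L (log2 fold change 0.17, SE 0.20, edgeR adjusted p = 0.70). The panels of levels per library show this layout for the inducible genes beside genes that varied less.

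**Figure D2:**
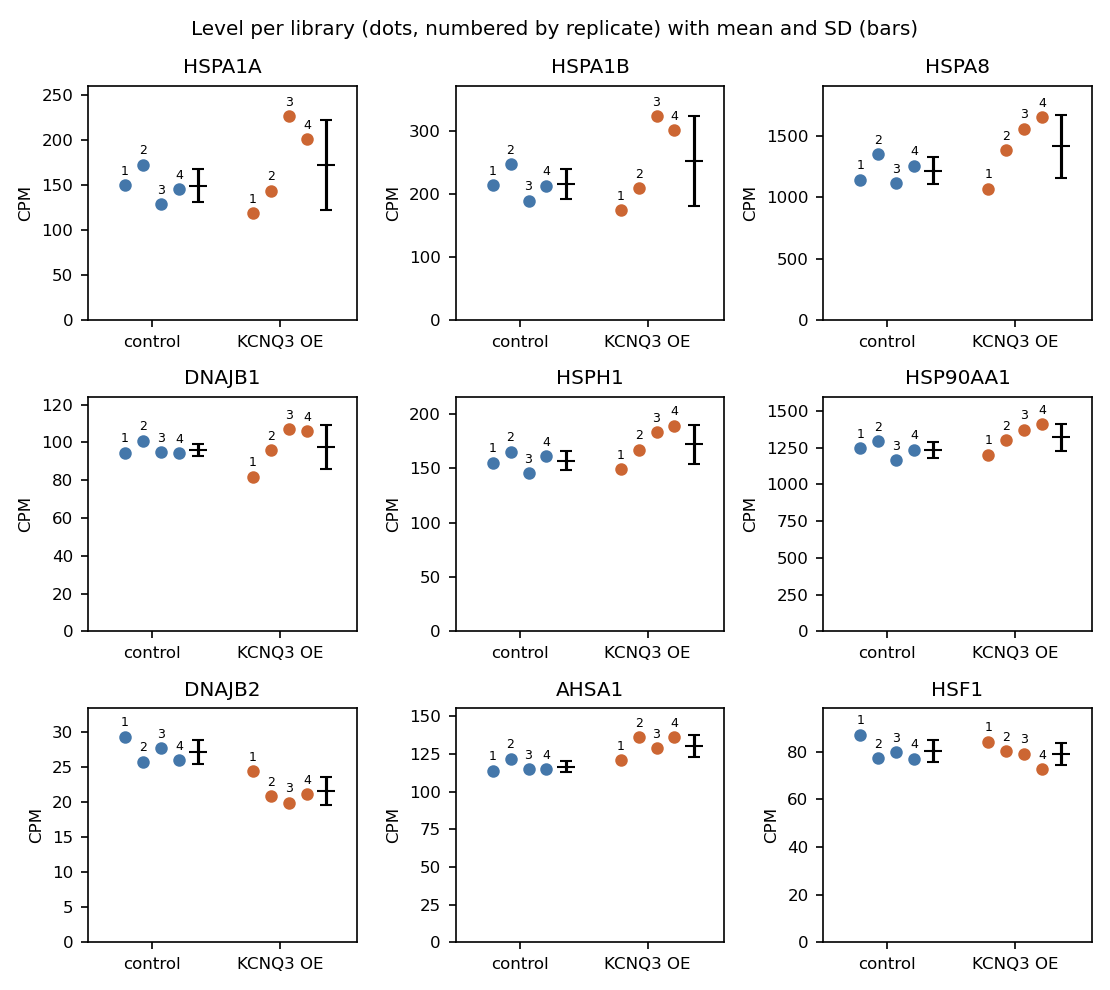
Level in CPM (y axis, from 0) of 9 chaperone genes in each control and KCNQ3 overexpression (OE) library, with dots numbered by replicate and bars for the mean and SD of 4 libraries. In HSPA1A, HSPA1B, HSPA8 and DNAJB1 overexpression replicate 1 lies below and replicates 3 and 4 lie above all controls, while DNAJB2 is lower in every overexpression library.

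Among the constitutive HSP70 genes, HSPA8 (HSC70, the main HSP70 of unstressed cells; chromosome 11, 123057489 to 123063230) had the widest difference. It stood at 1143, 1348, 1111 and 1254 CPM in controls and at 1069, 1383, 1556 and 1647 CPM with KCNQ3. Overexpression replicates 2, 3 and 4 exceeded every control and replicate 1 was below every control. The log2 fold change of HSPA8 was 0.22 (SE 0.13, edgeR adjusted p = 0.40), with a 95% interval of -0.08 to 0.52. It was 0.33 without overexpression replicate 1 (adjusted p = 0.062) and 0.13 without overexpression replicate 4 (adjusted p = 0.68), all by edgeR. HSPA13, a microsomal HSP70-like ATPase, was at 195 ± 14.7 CPM in controls and 177 ± 9.29 CPM with KCNQ3 (mean ± SD, n = 4 per group; log2 fold change -0.14, edgeR adjusted p = 0.24). HSPA14, a ribosome-associated HSP70, was at 59.2 ± 4.95 and 62.3 ± 5.10 CPM. GENCODE gives the symbol HSPA14 to a second, overlapping gene, and the sum of both had a log2 fold change of 0.01 (edgeR adjusted p = 0.95).

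The HSP110 genes encode large relatives of HSP70 that act as its exchange factors. HSPH1, the heat-inducible one, stood at 155, 165, 145 and 161 CPM in controls and at 149, 167, 183 and 189 CPM with KCNQ3. Overexpression replicates 3 and 4 were again highest, replicate 1 lay among the controls, and the difference did not pass (log2 fold change 0.14, SE 0.07, edgeR adjusted p = 0.33). HSPA4, the most abundant of the class per length, was steadier, at 238, 238, 228 and 231 CPM in controls and 234, 233, 230 and 226 CPM with KCNQ3 (log2 fold change -0.02, SE 0.04, edgeR adjusted p = 0.82). HSPA4L was at 107 ± 4.76 and 108 ± 4.99 CPM.

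Taking the 35 genes other than SUGT1P1, overexpression replicate 3 was the highest of the 8 libraries for 13 and replicate 4 for 8, and overexpression replicate 1 was the lowest for 13. Over all genes tested these shares were 10.6%, 15.3% and 10.7%. Replicates 3 and 4 both exceeded every control for 15 of the 35 genes (16.8% of all genes), and replicate 1 was below every control for 17 (21.7% of all genes). Both held for 8 genes, DNAJA1, DNAJB1, FKBP4, HSPA1A, HSPA1B, HSPA1L, HSPA8 and PTGES3, and for 1.46% of all genes. Of these, HSPA1A and HSPA1B are near-identical and HSPA1L shares some sequence with them, so their counts need not be independent. This layout was noticed after the values were seen and has no test. The map of deviations shows it as pale or blue cells in OE1 and red cells in OE3 and OE4.

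**Figure D3:**
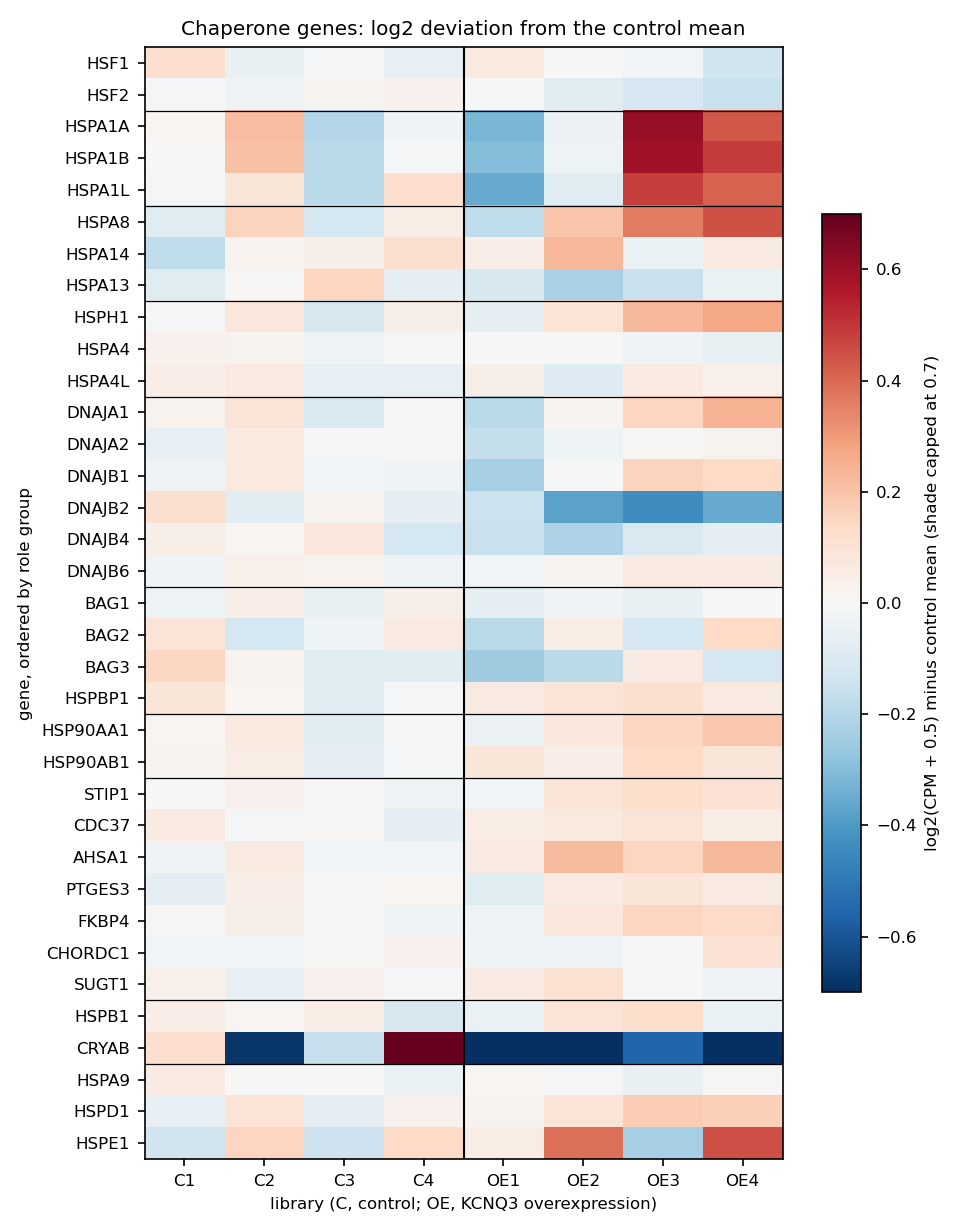
Deviation of each chaperone gene (rows, grouped by role) from its control mean, as log2(CPM + 0.5), in each control (C) and KCNQ3 overexpression (OE) library. HSPA1A reaches 0.61 in OE3 and -0.32 in OE1, DNAJB2 is below 0 in all 4 overexpression libraries, and the shade is capped for CRYAB.

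The SD of log2 CPM was larger among overexpression libraries for 24 of the 35 genes, against 52.9% of all genes. For HSPA1A it was 0.17 in controls and 0.43 with KCNQ3, for HSPA8 0.13 and 0.28, and for DNAJB1 0.05 and 0.18. KCNQ3 in the same overexpression libraries was at 573, 657, 735 and 771 CPM. With 4 libraries no relation between KCNQ3 and a chaperone gene across libraries was tested. The median deviation of the 35 genes was -0.04 in overexpression replicate 1, 0.02 in replicate 2 and 0.06 in each of replicates 3 and 4.

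The 6 J-domain genes had 0 members past the threshold. DNAJB2 (chromosome 2, 219279267 to 219286900), a neuron-enriched J protein with ubiquitin-interacting motifs that directs clients to the proteasome, stood at 29.3, 25.7, 27.6 and 25.9 CPM in controls. With KCNQ3 it stood at 24.4, 20.8, 19.9 and 21.1 CPM. Every overexpression library was below every control. The log2 fold change of DNAJB2 was -0.33 (SE 0.07, 95% interval -0.49 to -0.18), with an adjusted p of 0.064 by edgeR, just outside the threshold. Leaving out overexpression replicate 1 gave -0.40 with an edgeR adjusted p of 0.026, and DESeq2's Wald test gave -0.34 with an adjusted p of 0.0081, so this call depends on the setting.

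DNAJA1, the most abundant member of the class per length and a partner of HSPA8, stood at 207, 216, 189 and 203 CPM in controls and at 178, 206, 226 and 241 CPM with KCNQ3. Its overexpression libraries reached both below and above the controls (log2 fold change 0.06, SE 0.09, edgeR adjusted p = 0.75). DNAJB1 (HSP40), the heat-inducible partner of HSP70, did likewise, at 94.6, 101, 94.9 and 94.3 CPM against 81.8, 95.8, 107 and 106 CPM (log2 fold change 0.02, edgeR adjusted p = 0.91). DNAJB1 lies opposite TECR, with which reads could be confused where counting ignores strand. DNAJB4, a relative of DNAJB1, was at 20.1 ± 1.20 and 18.2 ± 0.807 CPM (log2 fold change -0.14, edgeR adjusted p = 0.23). DNAJA2 and DNAJB6, the latter a suppressor of polyglutamine aggregation, had log2 fold changes of -0.04 and 0.03.

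Exchange factors of HSP70 showed no change that passed. HSPBP1, which loosens nucleotide from HSP70, was the most abundant of these 4 genes per length, at 34.3, 32.7, 30.5 and 32.1 CPM in controls and 33.8, 34.5, 35.1 and 33.8 CPM with KCNQ3. The 2 groups overlapped only through control replicate 1 (log2 fold change 0.08, SE 0.05, edgeR adjusted p = 0.36). BAG3, an HSF1 target that links HSP70 to selective autophagy, stood at 38.1, 35, 32.4 and 32.5 CPM in controls and at 28.9, 30.2, 35.9 and 31.6 CPM with KCNQ3. The libraries of BAG3 overlapped between the groups (log2 fold change -0.13, SE 0.08, edgeR adjusted p = 0.39). BAG1 and BAG2, whose products bind the HSP70 ATPase domain, had log2 fold changes of -0.04 and -0.03.

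Both HSP90 genes were slightly above the controls without passing. HSP90AA1, the inducible form, stood at 1245, 1293, 1166 and 1235 CPM in controls and at 1201, 1300, 1371 and 1408 CPM with KCNQ3. Overexpression replicates 3 and 4 were above the controls and replicate 1 lay among them (log2 fold change 0.10, SE 0.06, edgeR adjusted p = 0.40). HSP90AB1, the constitutive form, was at 1024, 1049, 969 and 1004 CPM in controls and 1074, 1043, 1114 and 1073 CPM with KCNQ3. Of its overexpression libraries 3 exceeded every control (log2 fold change 0.09, SE 0.04, edgeR adjusted p = 0.30).

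All 8 genes of the HSP90 cochaperone group had edgeR values above 0 (52.6% of all genes did), and only SUGT1P1 passed. In limma on TPM the values of PTGES3, CHORDC1 and SUGT1 were below 0. AHSA1 (chromosome 14, 77457870 to 77469474), the activator of the HSP90 ATPase, stood at 114, 122, 115 and 115 CPM in controls and at 121, 136, 129 and 136 CPM with KCNQ3. The groups overlapped only because control replicate 2 exceeded overexpression replicate 1. The log2 fold change of AHSA1 was 0.17 (SE 0.05, 95% interval 0.06 to 0.27), with an adjusted p of 0.11 by edgeR, whereas DESeq2 gave 0.16 with an adjusted p of 0.028. PTGES3 (p23), which stabilises the closed form of HSP90, was the most abundant cochaperone per length, at 476, 514, 495 and 502 CPM in controls and 469, 517, 527 and 519 CPM with KCNQ3 (log2 fold change 0.03, SE 0.05, edgeR adjusted p = 0.77). Values for STIP1 (HOP, the HSP70 to HSP90 adaptor), CDC37 (the kinase adaptor), FKBP4 (an immunophilin of steroid receptor complexes) and CHORDC1 (a CHORD-domain partner of SUGT1) ran from 0.01 to 0.08 on the log2 scale, with edgeR adjusted p of 0.37 to 0.94.

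SUGT1 encodes SGT1, which couples HSP90 to ubiquitin ligases and kinetochore assembly, and SUGT1P1 (chromosome 9, 33503655 to 33510711, minus strand) is annotated as its unprocessed pseudogene with 1 transcript of 476 bases in 5 exons. SUGT1P1 had 0 counts in each of the 4 controls and 32, 32, 32 and 39 counts with KCNQ3. Those counts equal 1.20, 1.32, 1.19 and 1.62 CPM, and the groups were fully apart. SUGT1P1 passed the filter on low counts only through these overexpression libraries, so its test is not independent of that layout. Measured against a floor of 3 counts for the controls together, SUGT1P1 was at least 47-fold higher, an allowance for counting error only (edgeR adjusted p = 6.21e-04). SUGT1 itself stood at 52.6, 49.3, 52.3 and 50.7 CPM in controls and at 53.2, 55.2, 51.3 and 50.4 CPM with KCNQ3, with overlapping groups (log2 fold change 0.04, SE 0.04, edgeR adjusted p = 0.70).

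Of the 50-base windows of SUGT1P1, 4.68% are also in SUGT1. A stretch of pseudogene and parent is printed to show what a read from this region could be assigned by. It starts with their longest identical run and was cut at a set length after it. It covers 109 bases of the GENCODE 29 transcripts ENST00000379514 (chr9:33509133-33510661, minus strand, with an intron between) and ENST00000310528 (chr13:52657581-52658465, plus strand, coding exons with an intron between). Capitals mark the 4 bases that differ, and the identical run before them is 69 bases long.
SUGT1P1: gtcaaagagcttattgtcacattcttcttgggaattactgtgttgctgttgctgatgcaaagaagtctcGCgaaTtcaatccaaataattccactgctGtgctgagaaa
SUGT1: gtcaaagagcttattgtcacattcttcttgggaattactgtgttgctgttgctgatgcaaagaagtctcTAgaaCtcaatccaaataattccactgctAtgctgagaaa

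The counts given to SUGT1P1 amounted to 2.53% of those given to SUGT1 in the overexpression libraries (135 against 5343). With both genes summed, the level was 52.6, 49.3, 52.3 and 50.7 CPM in controls and 54.4, 56.6, 52.4 and 52.0 CPM with KCNQ3 (log2 fold change 0.07, SE 0.04, edgeR adjusted p = 0.38). No run of 20 bases or more was shared between SUGT1P1 and the GENCODE transcripts of KCNQ3 in the same orientation. The reverse complement and the tag and backbone of the plasmid were not searched. After SUGT1, the next longest identical run was 57 bases, with the pseudogene SUGT1P3. As a transcript, the same counts for SUGT1P1 had an adjusted p of 0.073 in the edgeR transcript test, which adjusts over 47129 transcripts. Whether the authors' division of reads between SUGT1 and SUGT1P1 differed between the groups was not tested.

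Of the small heat shock proteins, which hold unfolded proteins without ATP, HSPB1 (HSP27) was at 73.2, 71.4, 73.6 and 65.5 CPM in controls and 68.6, 75.7, 77.3 and 68.7 CPM with KCNQ3, with overlapping groups (log2 fold change 0.03, SE 0.06, edgeR adjusted p = 0.79). CRYAB (alpha-B crystallin; chromosome 11, 111908565 to 111923722) was barely present. Its counts were 44, 16, 26 and 61 in controls and 6, 9, 19 and 1 with KCNQ3. The groups overlapped only through overexpression replicate 3 and control replicate 2. The log2 fold change of CRYAB was -2.00 (SE 0.66, 95% interval -3.55 to -0.46), with an adjusted p of 0.17 by edgeR. In control replicate 4 the counts of CRYAB were assigned to ENST00000533971 (52) and ENST00000526180 (9), which had none elsewhere. CRYAB lies opposite HSPB2-C11orf52, which had 88 counts in controls and 53 with KCNQ3, and the sources used here do not give the strand setting of the counting.

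The mitochondrial chaperones are included because they belong to the same families. HSPD1 (HSP60) stood at 680, 756, 678 and 722 CPM in controls and at 719, 755, 800 and 796 CPM with KCNQ3. Overexpression replicates 3 and 4 were the highest and the other libraries overlapped (log2 fold change 0.11, SE 0.05, edgeR adjusted p = 0.27). HSPA9 (mortalin, the HSP70 of the mitochondrial matrix) was at 395 ± 12.0 and 392 ± 7.79 CPM. HSPE1 (HSP10, the lid of the HSP60 barrel; chromosome 2, 197499994 to 197503457), which shares a divergent promoter with HSPD1, was more scattered, at 67.4, 82.5, 67.2 and 82.0 CPM in controls and 77, 97.4, 63.3 and 102 CPM with KCNQ3. Its lowest library was overexpression replicate 3 (log2 fold change 0.18, SE 0.17, edgeR adjusted p = 0.61).

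That library was also the only one with counts for HSPE1-MOB4, a readthrough gene that joins HSPE1 to its neighbour MOB4. HSPE1-MOB4 had 1296 counts (48.3 CPM) in overexpression replicate 3 and 0 in the other 7 libraries. MOB4 was at 51.6 CPM in the same library and at 71.6 to 81.6 CPM elsewhere. Summed over HSPE1, MOB4 and the readthrough gene, the level was 139, 160, 149 and 161 CPM in controls and 152, 170, 163 and 175 CPM with KCNQ3. In the sum overexpression replicate 3 no longer stands out, and the log2 fold change was 0.12 (SE 0.06, edgeR adjusted p = 0.31). The bars for this locus show the readthrough counts appearing where those of HSPE1 and MOB4 were low.

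**Figure D4:**
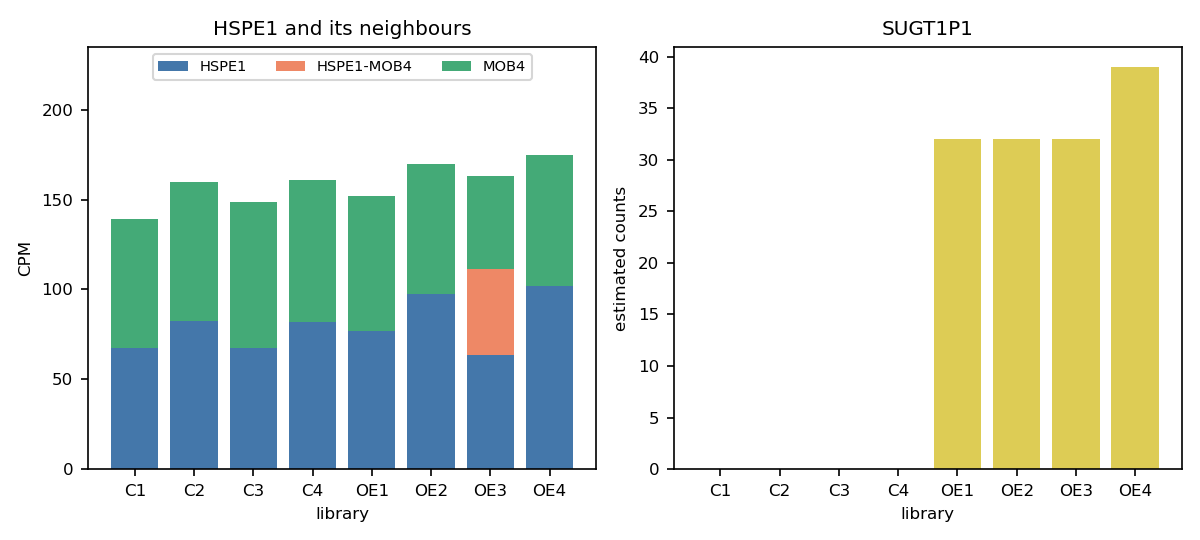
Left, CPM (y axis) of HSPE1, HSPE1-MOB4 and MOB4 stacked in each control (C) and KCNQ3 overexpression (OE) library; right, estimated counts of SUGT1P1 in the same libraries. HSPE1-MOB4 appears only in OE3 (48.3 CPM), and SUGT1P1 only in the 4 overexpression libraries (32 to 39 counts).

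Levels between genes were compared in TPM, which scales for transcript length. HSPA8 was the most abundant of the 36 genes at 900 ± 77.3 TPM in controls and 1014 ± 147 TPM with KCNQ3 (mean ± SD, n = 4 per group). HSP90AB1 (647 ± 38.1 and 665 ± 33.2 TPM), HSP90AA1 (578 ± 34.7 and 618 ± 34.0 TPM), HSPD1 (549 ± 24.2 and 580 ± 22.4 TPM) and PTGES3 (432 ± 21.3 and 422 ± 17.8 TPM) followed. The inducible copies were present without any named stress, with HSPA1B at 140 ± 17.4 TPM and HSPA1A at 102 ± 13.6 TPM in controls. At the lower end were BAG2, HSPA1L, SUGT1P1 and CRYAB, each with a mean under 6 TPM over all libraries. The TPM of SUGT1 was uneven in controls (20.7 ± 14.1, against 16.9 ± 1.92 with KCNQ3) although its CPM was not.

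The 36 genes had 230 transcripts with counts, of which 116 could be tested, and 0 passed by edgeR, against 0.0127% of all transcripts. At an unadjusted p under 0.05 there were 12 of the 116, against 5.58% of all transcripts. Transcript usage, tested by edgeR's diffSpliceDGE in the 26 genes with several tested transcripts, changed in 0, against 0.383% of all genes. A second usage test, limma on the log ratio of each transcript to the rest of its gene, also called 0 of 26 genes (smallest adjusted p 0.94). It called 0 of 106 chaperone transcripts, and only 43 of 35855 transcripts over all genes, so a count of 0 is near the background. On simulated data diffSpliceDGE made more false calls than true ones, so its result is given for completeness.

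In some genes the division among transcripts differed widely between libraries, while DNAJA1, HSPA13, FKBP4 and STIP1 kept 1 transcript at over 98% of the counts throughout. For HSPA8, ENST00000227378 held 56.6%, 71.0%, 77.8% and 2.87% of the gene's counts in controls and 73.3%, 88.3%, 1.72% and 71.9% with KCNQ3. The longer ENST00000534624 made up 95.8% in control replicate 4 and 90.5% in overexpression replicate 3. These 2 libraries, one from each group, stand apart from the other 6 in HSPA8 transcripts but not in the gene total. HSP90AA1 behaved in the same way in another library, with ENST00000334701 at 4.69% in overexpression replicate 2 and at 91.1% to 96.7% elsewhere. In HSF2, ENST00000368455 held 49.9% to 81.6% in 6 libraries, 46.2% in overexpression replicate 3 and 12.8% in overexpression replicate 4. For SUGT1, the short transcript ENST00000343788 (1217 bases) had 808, 309, 133 and 59 counts in controls and 241, 220, 272 and 172 with KCNQ3, which sets the TPM of control replicate 1 well above the rest.

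**Figure D5:**
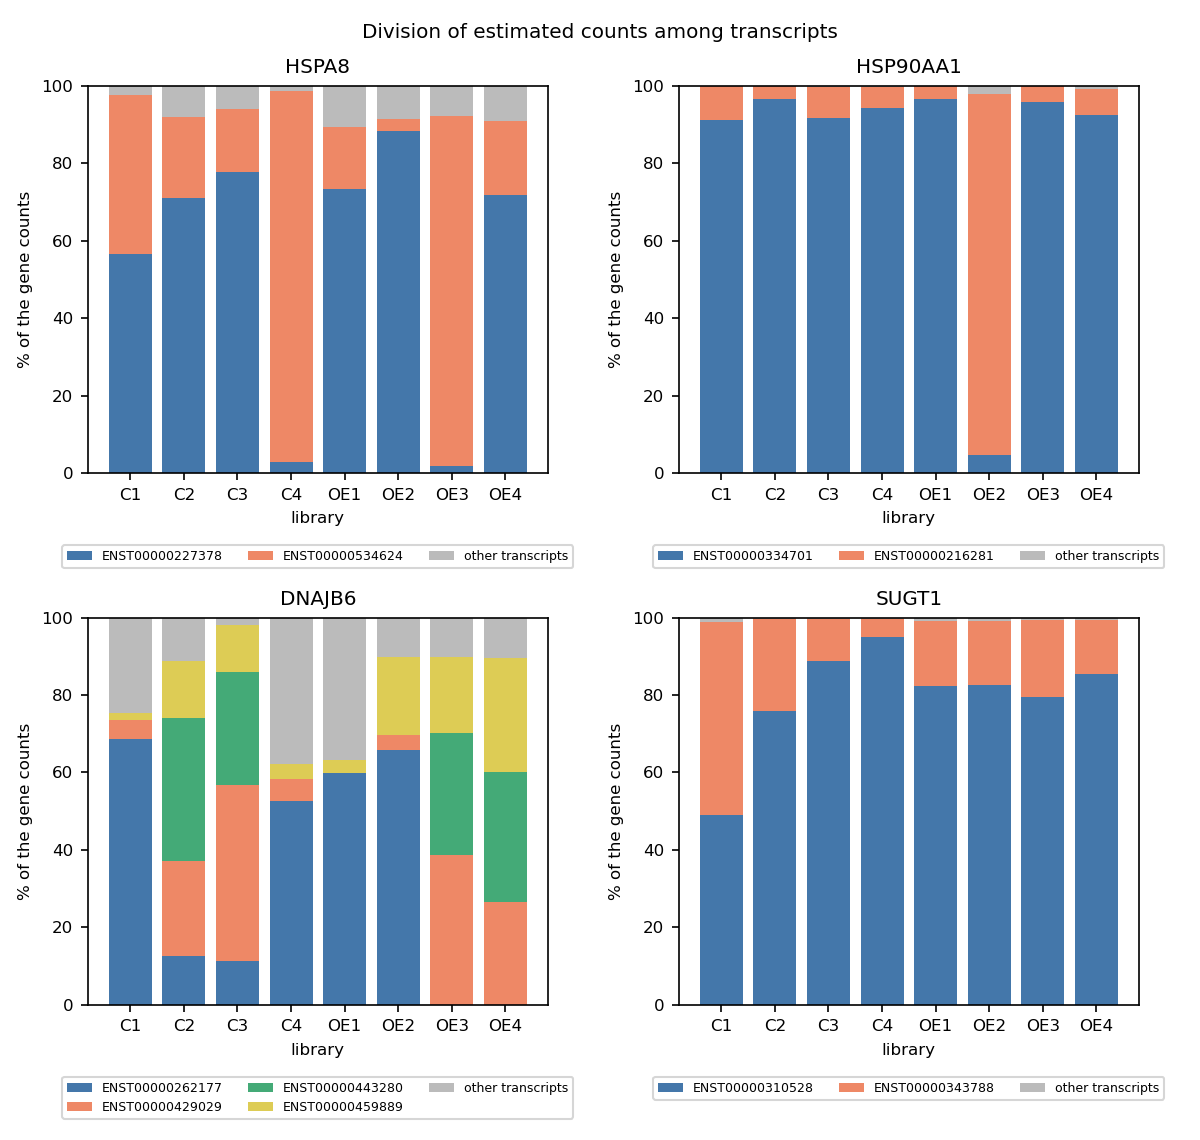
Share of a gene's estimated counts (y axis, in percent) given to its leading transcripts in each control (C) and KCNQ3 overexpression (OE) library for HSPA8, HSP90AA1, DNAJB6 and SUGT1. HSPA8 switches to ENST00000534624 in C4 and OE3 and HSP90AA1 to ENST00000216281 in OE2, so the leading transcript differs in single libraries of either group.

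A wider list of 78 genes of the same pathways, chosen with earlier results of these data known, gave 73 tested genes, of which 0 rose and 0 fell by edgeR (median log2 fold change 0.015). At an unadjusted p under 0.05, 8 were higher and 7 lower, near the 9.92% and 9.46% of all genes. DESeq2 called 2 of them higher (HSF4 and SPG7, a mitochondrial protease subunit) and 1 lower (LONP1, a mitochondrial protease), against its 2.29% and 3.11% of all genes. The 8 subunits of the cytosolic chaperonin TRiC had a median of 0.04, with CCT3 at 802 ± 30.2 and 846 ± 34.0 CPM. The 6 prefoldin subunits, which pass actin and tubulin to TRiC, had a median of 0.07, and 15 further HSP90 cochaperones one of 0.04. Among 12 further J-domain genes the median was -0.01, and among 9 further HSP70 and BAG genes -0.06. HSPA6, a strictly heat-induced HSP70, was at 2.19 ± 1.05 CPM in controls and 0.735 ± 0.170 CPM with KCNQ3 (log2 fold change -1.57, SE 0.38, edgeR adjusted p = 0.10). The groups of HSPA6 did not overlap. Of the 73 tested genes, 4 were separated downward in this way and 8 upward, against 5.77% and 5.84% of all genes. HSPA6 is named outside the rule for named genes, after its values were seen.

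The 4 tested small heat shock protein genes of that list had a median of 0.17. The 4 tested genes around HSF1 had a median of 0.01 and included the smallest adjusted p of the list, for HSF4, a factor of lens development also named after its values were seen, at 10.7 ± 1.23 and 13.6 ± 0.776 CPM (log2 fold change 0.35, SE 0.09, edgeR adjusted p = 0.085). Heat also induces UBB, which encodes ubiquitin and was at 984 ± 18 and 970 ± 68.3 CPM, and the 7 heat-induced genes had a median of -0.02. The 8 mitochondrial proteostasis genes had a median of 0.02, with TRAP1, the mitochondrial HSP90, at 288 ± 10.1 and 295 ± 6.97 CPM.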

How the data were processed

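RNA sequencing of 8 HEK293T libraries (4 control, 4 KCNQ3 overexpression) was used as the authors deposited it, as estimated counts per transcript and as TPM per transcript for 227751 Ensembl identifiers. The build was GRCh38.p13 and the tools named were StringTie 2.1.0, HISAT2 2.1.0, SAMtools 1.9, FastQC 0.11.5 and cutadapt 2.8, per the submitters' processing notes. The sources used here give neither their roles nor the annotation release or strand setting. Such counts are estimated from coverage, so reads shared by isoforms, copies or overlapping genes were divided before deposit.

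Transcripts were summed per gene through GENCODE 29 (GRCh38). Of the identifiers 205804 matched, holding 98.7% to 98.9% of counts per library. Genes kept by filterByExpr (minimum count 10, minimum total 15) were tested with edgeR 4.0.16 (R 4.3.3; TMM scaling, robust quasi-likelihood, threshold 0.05), without covariates. Intervals of fold changes are 95% intervals from that test. Alternatives were other scalings, no filter, DESeq2 1.42.0, limma 3.58.1 on log2(TPM + 1) and log2(TPM + 0.1) with a mean TPM of at least 0.5 or no filter, a replicate block, summed copies and leaving out each library. The test of transcript shares with limma and the sums over HSPE1 with MOB4 and over both HSPA14 genes were chosen after seeing the data. The scripts were tested on simulated data.

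Libraries of a group are called biological replicates in the series, but no source used here says that the cultures were separate. The p-values therefore measure only how these samples vary, which may be technical variation. The members and lists were chosen with earlier results of these data known. Values per library are given for genes past the threshold, SUGT1 and SUGT1P1, HSF1 and HSF2, HSPA1A and HSPA1B, and in each role group the most abundant gene by TPM and the one with the largest fold change. Other genes given per library (HSPA1L, DNAJB1, AHSA1) are outside that rule, chosen after their values were seen. Of each further list the rule takes the 2 most abundant genes, and not all of them are printed.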

Additional observations from a re-analysis of the deposited data

Results flagged for a closer look

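In 4 of the 72 groups of 4 libraries that were checked, 1 library lay further from the other 3 than Dixon's 95% limit for 4 values allows, where chance gives about 1 in 20 groups. In HSPA4L, overexpression replicate 2 was at 100 CPM, below the next library at 109 CPM and the highest at 111 CPM (ratio of gap to range 0.842). In DNAJB1, control replicate 2 was at 101 CPM, above 94.9 and 94.3 CPM at either end of the others (ratio 0.904). In AHSA1, control replicate 2 was at 122 CPM, above 115 and 114 CPM (ratio 0.903). In PTGES3, overexpression replicate 1 was at 469 CPM, below 517 and 527 CPM (ratio 0.843).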

How the results depend on the processing

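SUGT1P1 was the only chaperone gene past the threshold in edgeR. It stayed past it under the other scalings, without the filter on low counts, in limma on TPM and without each library in turn. In the last the edgeR adjusted p was 0.0016 to 0.0083. All these settings share the 0 counts of SUGT1P1 in every control, so they are not separate support for the gene. DESeq2 gave it no adjusted p and called 2 other genes, 1 of them lower (AHSA1 at 0.16, DNAJB2 at -0.34). Leaving out single libraries gave 1 to 2 chaperone genes past the threshold, 0 to 1 of them lower, the added gene being DNAJB2 without overexpression replicate 1. It gave 0 to 1 genes with changed transcript usage, which were DNAJB4 without control replicate 1 and HSPA9 without overexpression replicate 4. The cause was not tested. Over all genes, 58 passed in edgeR, 738 in DESeq2, 35 without scaling factors, 7 to 9 in limma on TPM and 8 (without overexpression replicate 2) to 378 (without overexpression replicate 1) with 1 library left out. The median of the members moved by less than the spread between libraries in each alternative. The sum of SUGT1 and SUGT1P1 had a log2 fold change of 0.07 and did not pass. The counts of SUGT1P1 were 2.53% of those of SUGT1 with KCNQ3, so this sum follows SUGT1 and cannot decide on SUGT1P1.

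Of 580 values for single genes under alternatives, 42 had the opposite sign, in 12 genes whose log2 fold changes were at most 0.062 in size. Without scaling factors these were HSPA4L (-0.008) and CHORDC1 (-0.010). In limma with TPM + 1, TPM + 1 unfiltered or TPM + 0.1 they were DNAJB1 (-0.020 in each), DNAJB6 (-0.165, -0.165 and -0.167), BAG1 (0.005 in each), PTGES3 (-0.032 in each), CHORDC1 (-0.041, -0.041 and -0.042), SUGT1 (-0.064, -0.064 and -0.057) and HSPB1 (-0.032 in each). Without single libraries the ranges were -0.059 to 0.016 for HSF1, -0.091 to 0.020 for BAG2, -0.028 to 0.018 for CHORDC1, -0.030 to 0.005 for HSPA9, -0.012 to 0.040 for HSPA4L, -0.006 to 0.055 for HSPB1, -0.029 to 0.093 for DNAJB1 and -0.007 to 0.132 for DNAJA1.

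The groups share replicate numbers. The correlation of deviations between libraries of the same number was 0.014, -0.013, -0.046 and -0.024, so the numbers were not taken to pair the libraries. With a replicate block in the edgeR fit, 1 chaperone gene passed, again SUGT1P1 (adjusted p 0.044, against 6.21e-04 without the block), with a median of 0.034 over the members, 86 genes in all and 0 members with changed usage. Counts of CRYAB, HSPA1L and SUGT1P1 are low, and their values rest on few reads.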
